A study of Hypsibius dujardini with 126 samples.

Results

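Of 12746 transcript models of the tardigrade Hypsibius dujardini, 143 were counted in every deeply enough sequenced single embryo from the 1-cell stage to 99 h of development. The rule kept embryos with at least 63405 transcript counts and took the models with at least 1 count in each of them, leaving out HD_v1_tr_06538. It kept 101 of 126 embryos, so the members were chosen by the counts themselves, and they make up 1.12% of the models. Their presence in the kept embryos is therefore no finding, and neither is a high level in the embryos where counting was hardest.

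In animal embryos the first divisions run on RNA that the mother stored in the egg, and RNA made by the embryo's own genome takes over later while much of the stored RNA is cleared. RNAs found in nearly every cell at every age usually encode parts of the ribosome, translation factors, the cytoskeleton, histones and the enzymes of energy metabolism. Their amounts still change as cells divide and differentiate, and presence at all ages is not the same as a steady level. The files pair none of the transcript IDs with a gene name, so which of these classes the 143 transcripts belong to is not known here, and they are given by ID.

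Each sample was the whole polyadenylated RNA of 1 untreated embryo, read by CEL-Seq, which tags and counts the 3′ ends of RNA molecules. Per the labels' protocols, embryos were isolated, followed to the 2-cell stage, incubated at 20 °C for a set number of hours and frozen. Label times, given in minutes after fertilization and used here in hours, have an uncertain zero, since incubation was timed from the 2-cell stage. The kept 2-cell embryo was set to 0 h. The kept 1-cell embryo has no label hour: it counts in the 0-9 h window but is missing from the fit along the whole course and from plots against time. No label ties an embryo to a mother or clutch, and p-values measure the spread between embryos that may be related. Embryo numbers fall into 3 runs that cover different ages. Embryos 1-25 hold 0 to 18 h and 80 to 98 h, embryos 79-126 the 1-cell stage to 46 h, and embryos 26-78 the hours from 47 to 99. The labels call none of them a batch. Because age and run cannot be told apart across runs, comparisons of ages were made inside a run, between windows of 10 h. Of the tests, only the fit along the whole course joins the runs, with no term for them. In bulk RNA of a whole embryo, fewer cells of a type and less RNA per cell cannot be told apart.

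Transcript totals of the kept embryos ran from 65417 to 4972036, with a median of 811742. The 25 embryos left out had 2347 to 59340. The files hold no molecular identifiers, so intervals and limits from counts would cover counting error alone. In all, 5 kept embryos, numbers 11, 17, 24, 58 and 76, had over 10% of their counts on a single transcript. A further 9 went against their label time. Over 8701 transcripts outside the 143, the profiles of embryos 108 to 112 and 114, labelled 28 to 32 h and 34 h, were nearest to the mean of the 0-9 h embryos of the same run, with Spearman correlations of 0.906 to 0.96 against 0.823 to 0.916 to their own window. Embryo 113, labelled 33 h, was nearest to 10-19 h (0.948 against 0.923), and so was embryo 120, labelled 40 h (0.882 against 0.721). Embryo 55, labelled 76 h, was nearest to the embryos of 47 to 49 h (0.605 against 0.376). These 9 embryos stay in the comparisons as labelled. Shares, calls and levels that rest on them are in part also given without them. Windows of the highest mean, ranges over windows, spreads and correlations are given only with them.

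The rule was decided by a few shallow or one-sided libraries. Of the 143 transcripts, 41 had a lowest count of 1, 48 had a lowest count of 2 to 4, and 54 never fell below 5. For 60 of them the lowest count lay in embryo 17, which was labelled 80 h and had 51.3% of its 90771 counts on 1 transcript. For 39 it lay in embryo 81 (1 h, 65417 counts) and for 26 in embryo 58 (79 h, 76974 counts, 33.2% on 1 transcript), with ties counted for each embryo. Just outside the rule stood 140 transcripts that were missing from exactly 1 kept embryo, with mean levels from 23.4 to 2812 counts per 1000000 transcript counts (CPM) and a median of 249 CPM. The 41 transcripts just inside it, with a lowest count of 1, had means from 105 to 3061 CPM and a median of 504 CPM.

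Applied to 1 run at a time, the rule gave very different lists. Embryos 79-126 alone gave 4280 transcripts, embryos 1-25 alone gave 619, and embryos 26-78 alone gave 232. The lists of embryos 79-126 and 26-78 shared 186 transcripts, 4.35% of the first and 80.2% of the second. Embryos 1-25 and 26-78 shared 154, which were 24.9% and 66.4% of their lists. Embryos 26-78, all of label times from 47 h on, thus set the narrowest condition of the 3 runs. That run also holds embryos 58 and 76, with 33.2% and 27.4% of counts on 1 transcript. Without embryo 58 the rule gave 177 transcripts, and without the 5 one-sided embryos it gave 341. How far age, run or these libraries set the condition cannot be told apart. The 143 transcripts had to be counted in all of these embryos, and a larger share in older embryos, described next, cannot be read apart from that.

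The 143 transcripts took 12.7 ± 0.768% of all transcript counts at 0-9 h in embryos 1-25 (SD, n = 8), with single embryos between 11.6% and 14.1%. In the same run the share was 14.7 ± 1.76% at 10-19 h (SD, n = 8). Embryos 22 to 25, the 4 embryos of 90-99 h, had shares of 31.1%, 22.9%, 28.7% and 22.2%. The share of the oldest embryos lay above that of every embryo under 19 h.

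In embryos 79-126 the share started at the same level, 12.9 ± 1.54% at 0-9 h (SD, n = 9; 11.2% lowest, 13.0% median, 16.2% highest). It was 14.7 ± 3.38% at 10-19 h (SD, n = 5) and 18.4 ± 4.14% at 20-29 h (SD, n = 7). At 40-46 h it was 25.5 ± 4.97% (SD, n = 7; 15.6% lowest, 27.8% median, 29.2% highest). The lowest of these 7 values belongs to embryo 120, and the other 6 lay above all embryos of 0-9 h. Within the run the share moved in blocks of hours, which were set after the values were seen. The 5 embryos of 21 to 27 h had 16.6% to 24.4%, the 7 embryos of 28 to 34 h had 11.6% to 14.4%, and the 4 embryos of 35 to 39 h had 23.6% to 25.8%. The low block is made of the 7 embryos whose other transcripts were nearest to a younger window, and without them the 30-39 h share was 24.9 ± 1.06% (SD, n = 4) in place of 18.1 ± 6.51% (SD, n = 9). Without embryos 108 and 109 the 20-29 h share was 20.2 ± 3.35% (SD, n = 5). The 40-46 h share without embryo 120 was 27.1 ± 2.66% (SD, n = 6).

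In embryos 26-78 the share dipped and then climbed. It was 25.6 ± 2.23% at 47 to 49 h (SD, n = 3). The share was 22.3 ± 2.72% at 50-59 h (SD, n = 10), 19.7 ± 1.81% at 60-69 h (SD, n = 4) and 22.8 ± 3.97% at 70-79 h (SD, n = 9). The 70-79 h median was 20.6%, and without embryo 55, at 30.8%, the mean was 21.8 ± 2.75% (SD, n = 8). At 80-89 h the share was 26.3 ± 1.17% (SD, n = 6) and at 90-99 h 27.4 ± 1.35% (SD, n = 10). The range of 50-59 h, 18.6% to 25.6%, overlapped that of 90-99 h, 24.9% to 29.3%.

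Counts per spike-in count, a scale that does not depend on the other transcripts of the embryo, were available in the same libraries. In embryos 79-126 the 143 transcripts had a median of 20.8 counts per spike-in count at 0-9 h, 31.8 at 20-29 h and 43.1 at 40-46 h. All other transcripts together had medians of 149, 136 and 118. The 143 ran from 14.5 to 26.5 at 0-9 h and from 28.2 to 50.1 at 40-46 h, without overlap. The range of the others at 40-46 h, 101 to 152, lay inside that at 0-9 h, 74.9 to 208. In the 7 embryos of 28 to 34 h the 143 transcripts had a median of 32.3, close to the 31.8 of the embryos of 21 to 27 h, while the others had 203 against 116. In embryos 1-25 the 143 transcripts had a median of 1.08 at 0-9 h and 1.94 at 90-99 h, and the others 7.68 and 6.51.

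**Figure D1:**
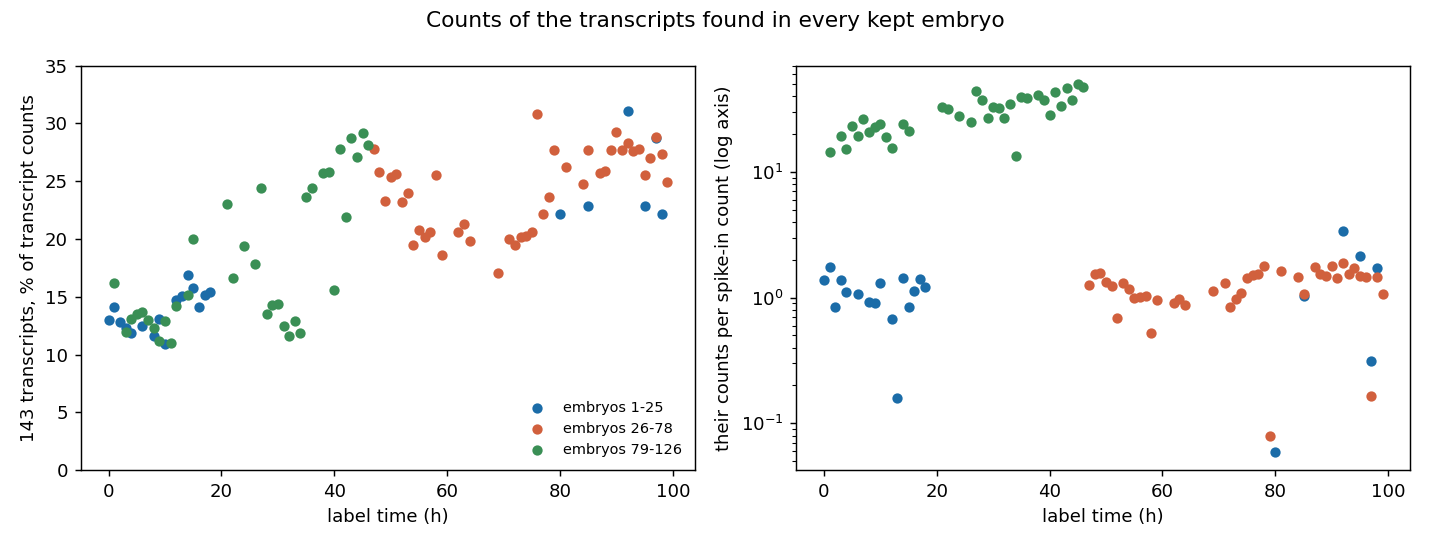
Counts of the 143 transcripts in each kept embryo with a label hour against that time, coloured by run of embryo numbers: left, their percentage of all transcript counts; right, their counts per spike-in count on a log axis. The share lay between 11.2% and 16.2% at 0-9 h in embryos 79-126, dropped back to 11.6% to 14.4% in the 7 embryos of 28 to 34 h, and reached 29.2% by 46 h; the right panel shows how far embryos 79-126 lie above the other runs per spike-in count.

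Being counted at every age did not mean the same level in every embryo, in these transcripts as in nearly all others. A spline of time over the kept embryos with a label hour (edgeR quasi-likelihood test, adjusted p under 0.05) called 138 of 143 (96.5%). It also called 86.5% of all 11798 tested transcripts and 92.2% of 1519 others above 105 CPM, so the count says little that is particular to the 143. This fit joins the 3 runs without a term for the run, so a call need not be a change with age. With a term for the run 132 of the 143 were called, and the share of all transcripts is not given for that fit. Those 1519 others are the remaining transcripts, HD_v1_tr_06538 aside, whose mean reached the lowest mean of the 143. They share a floor with the 143 and are not matched to them in level. The SD of log2 CPM over the kept embryos ran from 0.61 to 3.09 with a median of 1.11, and the others whose mean was at least the lowest mean of the 143 had a median of 2.29. Transcripts missing from any kept embryo were placed among the others, so the smaller spread cannot be read apart from the choice. A single count was enough to belong to the 143, and some still ranged widely. HD_v1_tr_07109, for example, ran from 0.588 to 2475 CPM. In embryos 79-126 the medians were 0.932 for the 143 and 0.827 for the others, in embryos 26-78 0.822 and 2.09, and in embryos 1-25 1.03 and 2.14.

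The widest comparison inside a run set the 4 embryos of 90-99 h against the 8 embryos of 0-9 h in embryos 1-25. There 95 of the 143 transcripts rose and 3 fell (edgeR adjusted p under 0.05), and 45 did not pass. Over all 11200 transcripts tested, 23.6% were higher and 21.3% lower at 90-99 h, and of the others above 105 CPM 25.0% and 23.2%. The 143 had to be counted in every one of these embryos. They also had to be counted in embryo 17 of the same run, labelled 80 h, where 60 of them had their lowest count. Their surplus of rises over the background cannot be read apart from that choice. The median fitted log2 change was 1.72 for the 143 transcripts, -0.45 for all tested and -0.30 for others above 105 CPM. The fit used TMM factors, which scale each library by the bulk of its transcripts. Other scalings shifted all transcripts together: the median of all tested was -0.85 with RLE factors (median ratios to a mean library), -0.95 with library totals and -1.20 with spike-in totals, and the median of the 143 was 1.41, 1.29 and 0.99. With spike-in totals 14 were called higher and 3 lower. Counts of the 143 per spike-in count ran from 0.316 to 3.42 among the 4 embryos of 90-99 h. Leaving out 1 of the 4 older embryos at a time gave 76 to 107 calls.

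In embryos 79-126 far more of the 143 transcripts rose than fell in each of 2 steps, though most did not rise in both. From 0-9 h to 20-29 h, 43 rose and 1 fell, against 15.1% higher and 3.06% lower of 7474 tested and 22.7% and 3.62% of others above 105 CPM (edgeR adjusted p under 0.05), with a median log2 change of 0.61 beside 0.05 for all tested. From 20-29 h to 40-46 h, 76 rose and 1 fell, against 12.1% higher and 13.3% lower of all and 19.7% and 13.0% of others above 105 CPM, with a median of 0.93 beside -0.04. Over both steps, from 0-9 h to 40-46 h, 109 were higher and 1 lower, against 30.0% and 23.4% of all and 41.6% and 17.3% of others above 105 CPM. The steps share the 20-29 h embryos, and IDs with near-equal counts, named further on, are counted separately. Taken transcript by transcript, 60 passed only as a rise in the second step, 28 only as a rise in the first, 15 rose in both and 38 passed in neither.

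Both steps were fitted again without the 9 embryos that went against their label, all left out at once. Of these, numbers 108 and 109 belong to the 20-29 h window and 120 to the 40-46 h window, and the others bear on the fit through its shared spread, factors and filter. Without the 9, 78 transcripts rose and 15 fell from 0-9 h to 20-29 h (5 embryos left at 20-29 h), against 23.8% higher and 22.3% lower of 7289 tested, and the median log2 change was 0.76. From 20-29 h to 40-46 h, 83 rose and 3 fell, against 14.1% and 16.6%, with a median of 1.23. Over both steps, from 0-9 h to 40-46 h, 107 were then higher and 5 lower, against 28.9% and 30.7% of all tested. By transcript, 42 then rose in both steps, 33 rose in the first alone, 28 in the second alone, and 13 fell first and rose afterwards. Only 1 showed that last course with all embryos. Library totals in place of TMM factors left 14 higher and 1 lower in the first step with all embryos, and the median of all tested was then -0.32. Spike-in totals left 14 higher, and a test against a 1.5-fold change made 16 calls.

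A list chosen without any embryo of these steps was read in the same steps. The 232 transcripts counted in every kept embryo of 26-78 contain all of the 143 and are not separate evidence from them. Being counted in every kept embryo from 47 h on favours transcripts that are high late. Rises toward 40-46 h cannot be read apart from that choice. The 232 had 59 higher and 1 lower among 224 tested in the first step. That is 26.3% higher, beside 15.1% of all tested and 22.7% of others above 105 CPM. In the second step 125 were higher and 2 lower. That is 55.8% higher, beside 12.1% of all tested and 19.7% of others above 105 CPM. The median log2 changes of the 224 tested were 0.54 and 1.13.

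Few of the 143 transcripts passed the test in the 2 shorter comparisons of embryos 26-78, which does not show that the rest were steady. From 50-59 h to 70-79 h, 9 rose and 2 fell, against 11.3% higher and 4.35% lower of 10680 tested and 11.5% and 4.86% of others above 105 CPM (edgeR adjusted p under 0.05). From 70-79 h to 90-99 h, 6 rose and 3 fell, against 7.12% and 8.62% of all and 7.46% and 10.9% of others above 105 CPM. Over both, from 50-59 h to 90-99 h, 22 were higher and 10 lower, against 16.0% and 11.8% of all and 14.9% and 16.3% of others above 105 CPM. The counts of the 2 shorter comparisons lie under the background and are no result about the 143 transcripts. The split by direction moved with the method: DESeq2 gave 10 higher and 11 lower for the first comparison and 8 higher and 6 lower for the second, library totals gave 8 and 5, then 12 and 2, and RLE factors gave 10 and 3, then 5 and 4. Without embryo 55, which went against its label, 9 were higher and 4 lower, against 11.3% and 5.13% of all tested. In the second comparison 6 were then higher and 4 lower, against 6.78% and 7.68%. The median size of the fitted log2 change was 0.35 and 0.40 in the 2 comparisons, beside 0.96 and 1.07 for all tested. For 21 of the 143 the highest of the window means from 50-59 h to 90-99 h was at least 4-fold the lowest. Of the 143, 83 stayed within a 2-fold range of window means from 50-59 h to 90-99 h, or 58.0%, as did 17.3% of others above 105 CPM. In the other runs the shares were closer: 23.8% of the 143 and 26.9% of the others over the 5 windows of embryos 79-126, and 20.3% and 14.2% over 0-9 h, 10-19 h and 90-99 h in embryos 1-25. Embryos 26-78 are also the run whose counts most narrowed the list.

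**Figure D2:**
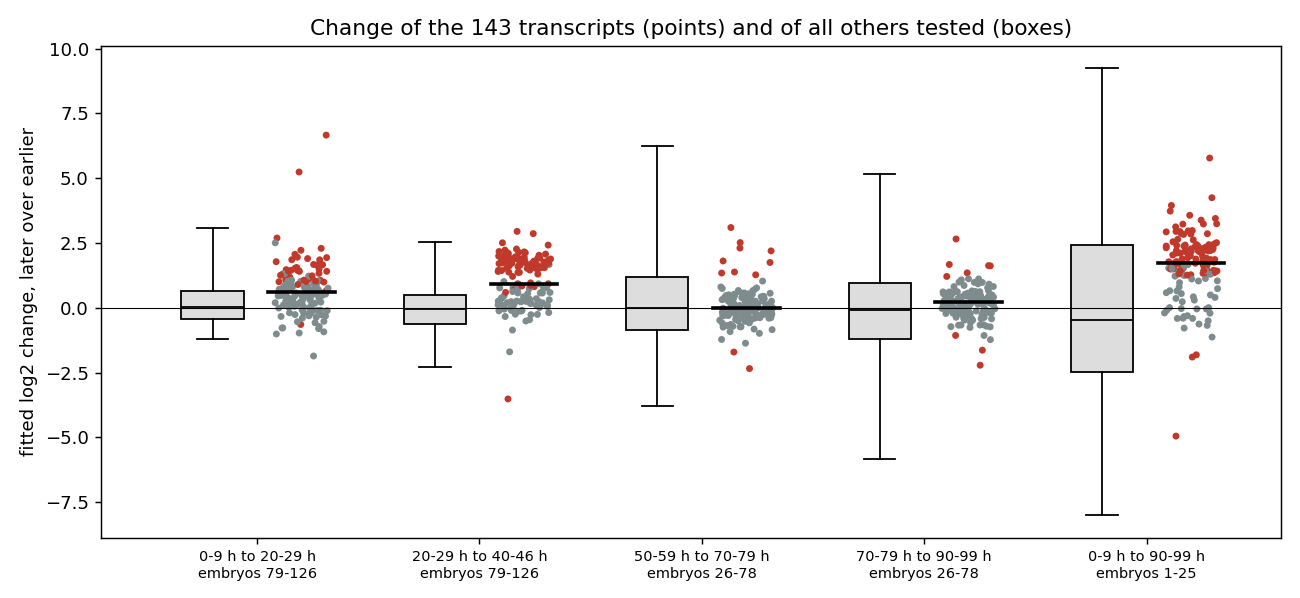
Fitted log2 change, later over earlier window, in the 5 comparisons within runs: points are the 143 transcripts (red where the edgeR adjusted p was under 0.05, grey elsewhere, black bar at their median), and grey boxes give the median, quartiles and the 5th to 95th percentiles of all other transcripts tested. The medians of the 143 were 0.61 and 0.93 in embryos 79-126, 0.01 and 0.23 in embryos 26-78 and 1.72 in embryos 1-25.

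The window of the highest mean differed by run. In embryos 79-126, 114 of the 143 transcripts were highest at 40-46 h and 18 at 0-9 h, while 73 were lowest at 0-9 h and 49 at 10-19 h. In embryos 1-25, 113 were highest at 90-99 h. In embryos 26-78 the highest windows were spread over 90-99 h (52), 50-59 h (39) and 80-89 h (38), and 66 transcripts were lowest at 60-69 h, a window of 4 kept embryos.

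**Figure D3:**
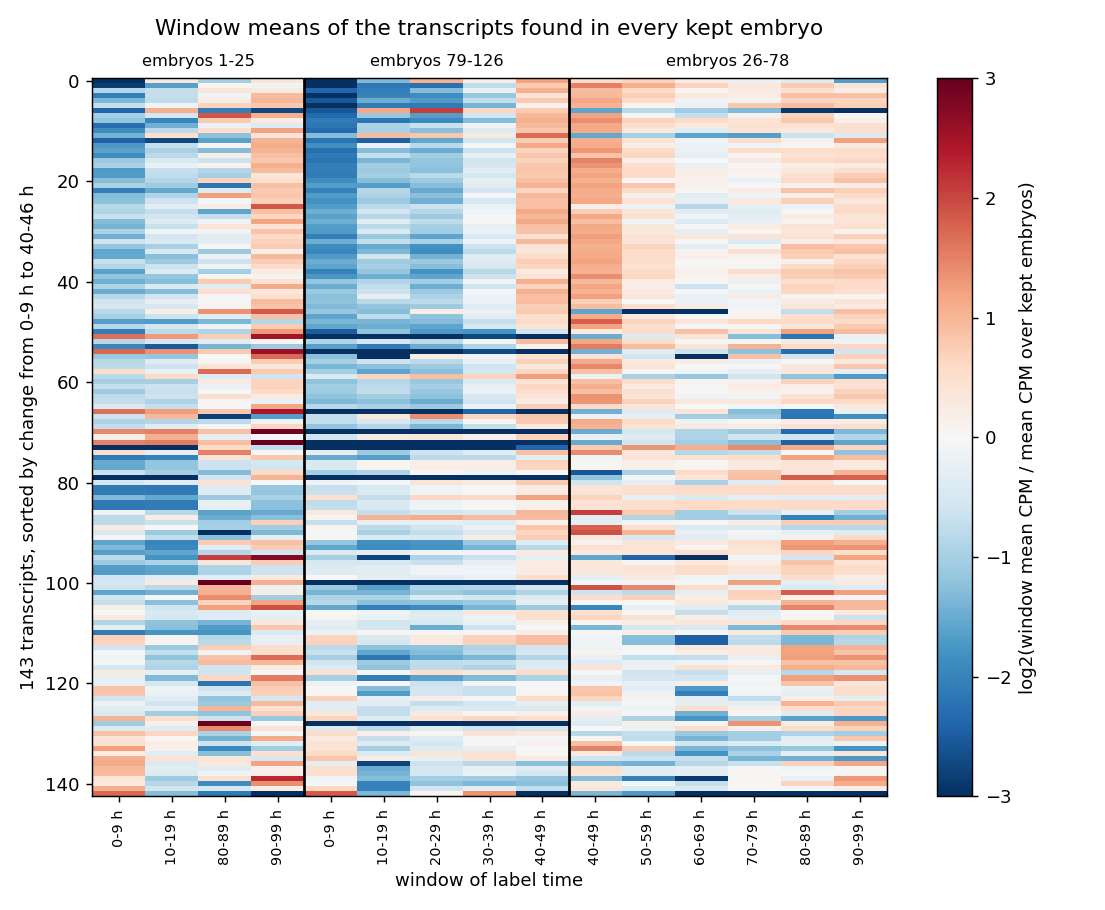
Window means of the 143 transcripts (rows, sorted by fitted change from 0-9 h to 40-46 h) as log2 of the window's mean CPM over the mean CPM of all kept embryos, by run and window of label time (columns; vertical lines divide the runs). Most upper rows go from blue at 0-9 h to red at 40-46 h within embryos 79-126, and the rows that stay blue across all 5 windows of that run include the 7 transcripts over 10-fold higher in embryos 1-25 at 0-9 h.

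The levels of the 143 transcripts were uneven. Mean CPM ran from 105 to 29590 with a median of 658, and the 10 highest held 47.8% of the summed mean CPM. Of the 10 transcripts with the highest mean in the table, 9 belonged to the 143, and so did 48 of the highest 143. The remaining transcript of the 10 was HD_v1_tr_06538, which the rule leaves out by name. CEL-Seq counts are not divided by transcript length, as each RNA is tagged at its 3′ end, so these CPM are levels of counted ends. The other 1519 transcripts with a mean of at least 105 CPM were missing from at least 1 kept embryo. Their order of levels was less alike over time within each run. The Spearman correlation of window means was taken over the 143 transcripts and over the 1519 others. In embryos 1-25 it was 0.64 against -0.01 between 0-9 h and 90-99 h. In embryos 79-126 it was 0.65 against 0.45 between the youngest and oldest windows. In embryos 26-78 it was 0.72 against 0.28 between 50-59 h and 90-99 h. The 143 had to be counted in every kept embryo, and the others were chosen as missing from some. The higher correlations within runs cannot be read apart from that choice. Between runs at the same label age the 143 had the lower correlation, 0.67 against 0.91 for 0-9 h in embryos 1-25 and 79-126. These correlations are across transcripts, which are not independent, and describe these libraries.

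The highest mean belonged to HD_v1_tr_11826, with 29590 CPM over the kept embryos. It had 26035 ± 10795 CPM at 0-9 h in embryos 79-126 (SD, n = 9; 11682 lowest, 23947 median, 51531 highest). It had 34039 ± 5423 CPM at 40-46 h (SD, n = 7; 22501 to 38736). These ranges overlapped, and neither step passed the test. Without the embryos against their label the first step passed, with a log2 change of 0.83 (SE 0.32, edgeR adjusted p = 0.0328). In embryos 26-78 its level went from 33879 ± 7542 CPM at 50-59 h (SD, n = 10) to 49638 ± 7863 CPM at 90-99 h (SD, n = 10), a log2 change of 0.63 (SE 0.20, edgeR adjusted p = 0.0137), though neither of the 2 shorter comparisons passed. At 0-9 h in embryos 1-25 it had only 6898 ± 2412 CPM (SD, n = 8; 3138 to 9922), below every embryo of the same label age in embryos 79-126. At the same label age its level thus differed between the runs.

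The transcripts most like HD_v1_tr_11826 over 101 kept embryos were HD_v1_tr_04135, HD_v1_tr_00049 and HD_v1_tr_00264, with Spearman correlations of log2 CPM of 0.886, 0.883 and 0.882. The last 2 also had the next highest means among the 143, 10273 and 10266 CPM. These 3 IDs had nearly equal counts, with a median difference over embryos within 5% and highest differences in single embryos of 12.4% to 14.5%. Reads from near-identical copies may have been split or counted for each ID, and the 3 cannot be taken as separate measurements. HD_v1_tr_00049 had 7799 ± 2308 CPM at 0-9 h (SD, n = 9) and 12273 ± 3057 CPM at 40-46 h (SD, n = 7) in embryos 79-126, a log2 change of 1.00 (SE 0.28, edgeR adjusted p = 0.00297). Its ranges, 4244 to 12688 CPM and 7001 to 15414 CPM, overlapped. In embryos 26-78 its window means stayed between 12862 and 16258 CPM.

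In all, 16 of the 143 transcripts fell into 6 sets whose counts differed by a median within 5%, which held 28.2% of the summed mean CPM. With each set counted once, 133 remained. Named after their values were seen, the other sets were the pairs HD_v1_tr_01480 with HD_v1_tr_05506, HD_v1_tr_02012 with HD_v1_tr_08281 and HD_v1_tr_03332 with HD_v1_tr_03398, the 4 IDs HD_v1_tr_03355, HD_v1_tr_03357, HD_v1_tr_06825 and HD_v1_tr_12323, and the 3 IDs HD_v1_tr_09180, HD_v1_tr_10858 and HD_v1_tr_12425. In the last set single embryos differed by up to 137% and 144%. Counts of calls in all comparisons take each ID separately, so a set can add several calls at once. From 0-9 h to 20-29 h in embryos 79-126, all IDs of the set of 4 and of the last set rose. So did both HD_v1_tr_01480 and HD_v1_tr_05506, and HD_v1_tr_00264 and HD_v1_tr_04135 without HD_v1_tr_00049. The remaining pairs did not pass there.

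The largest rise from the first to the last window in embryos 1-25 was that of HD_v1_tr_07783. It had 29.7 ± 14.5 CPM at 0-9 h (SD, n = 8; 10.7 lowest, 29.6 median, 58.2 highest), and 1267, 1209, 1506 and 955 CPM in the 4 embryos of 90-99 h. The groups lay far apart, with a log2 change of 5.78 (SE 0.54, edgeR adjusted p = 2.06e-08). In embryos 79-126 it had 31.8 ± 8.93 CPM at 0-9 h (SD, n = 9) and 64.9 ± 21.5 CPM at 40-46 h (SD, n = 7). In embryos 26-78 it went on from 592 ± 180 CPM at 50-59 h (SD, n = 10) to 2143 ± 312 CPM at 80-89 h (SD, n = 6) and 2088 ± 304 CPM at 90-99 h (SD, n = 10). The exception at 70-79 h was embryo 55, whose 75.7 CPM was the lowest of a window with a median of 1251 CPM. In embryos 1-25 the 2 embryos of 80-89 h had 187 and 652 CPM, below all 4 embryos of 90-99 h.

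HD_v1_tr_08978 rose by a log2 change of 3.95 in the same comparison (SE 0.69, edgeR adjusted p = 5.4e-05), but unevenly. It had 288 ± 116 CPM at 0-9 h (SD, n = 8; 98.4 to 393). The 4 embryos of 90-99 h had 347, 417, 3835 and 8799 CPM. The first of these lay inside the range of the young embryos, and the last 2, of 97 and 98 h, lay far above it. Without the embryo of 98 h, number 25, the log2 change was 2.26 (edgeR adjusted p = 0.00417). In embryos 26-78 it was at 10.7 ± 7.53 CPM at 60-69 h (SD, n = 4), its lowest window, and at 1122 ± 1953 CPM at 90-99 h (SD, n = 10; 143 lowest, 315 median, 6525 highest).

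HD_v1_tr_01899 fell most, from 2789 ± 2770 CPM at 0-9 h (SD, n = 8; 357 lowest, 1733 median, 8336 highest) to 59.2, 30.6, 175 and 58.9 CPM in the 4 embryos of 90-99 h. The groups did not overlap, and the log2 change was -4.95 (SE 1.12, edgeR adjusted p = 0.00088). Embryos 79-126 showed the same course by 40 h, with 3047 ± 1991 CPM at 0-9 h (SD, n = 9; 784 to 6864) and 59.4 ± 42.8 CPM at 40-46 h (SD, n = 7; 26.7 to 144). Between these it was split by the embryos that went against their label. The 5 embryos of 21 to 27 h had 10.5 to 404 CPM with a median of 32.6, the 7 embryos of 28 to 34 h had 211 to 8086 CPM with a median of 2484, and the 4 embryos of 35 to 39 h had 3.68 to 33.4 CPM with a median of 14.8. The highest of the 7 lay above every embryo of 0-9 h in that run. Without those embryos the first step gave a log2 change of -4.66 (SE 0.81, edgeR adjusted p = 2.6e-05) in place of -1.86 (SE 1.09, edgeR adjusted p = 0.238), and the second step no longer passed (-1.31, SE 0.72, edgeR adjusted p = 0.172).

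HD_v1_tr_03714 fell from 1781 ± 586 CPM at 0-9 h (SD, n = 8; 627 to 2440) to 226, 249, 534 and 457 CPM at 90-99 h, a log2 change of -1.90 (SE 0.56, edgeR adjusted p = 0.0075). The groups did not overlap. It was not a single fall: in embryos 79-126 it went from 988 ± 468 CPM at 0-9 h (SD, n = 9) to 751 ± 357 CPM at 40-46 h (SD, n = 7) without passing the test. Without the embryos against their label it fell in the first step (-1.46, SE 0.42, edgeR adjusted p = 0.00514) and rose in the second (1.39, SE 0.44, edgeR adjusted p = 0.0165). In embryos 26-78 it had 2124 ± 314 CPM at 47 to 49 h (SD, n = 3), 1303 ± 693 CPM at 50-59 h (SD, n = 10) and 217 ± 95.8 CPM at 90-99 h (SD, n = 10). The step from 40-46 h to 47-49 h joins different runs, and age and run cannot be told apart there.

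The 3 transcripts with the smallest spread were HD_v1_tr_01663, HD_v1_tr_01887 and HD_v1_tr_01691, with SDs of log2 CPM of 0.61, 0.63 and 0.64 over the kept embryos. All 3 are among the 5 of the 143 not called along the whole course, though each passed in some comparison within a run. HD_v1_tr_01663 had 1091 ± 169 CPM at 20-29 h (SD, n = 7) and 2019 ± 680 CPM at 40-46 h (SD, n = 7) in embryos 79-126, with ranges of 852 to 1367 CPM and 1467 to 3511 CPM that did not overlap (log2 change 0.82, SE 0.27, edgeR adjusted p = 0.0245). Embryo 120 held the highest of these values, and without the embryos against their label the ranges still did not overlap (852 to 1367 CPM and 1467 to 1971 CPM) but the step no longer passed (0.35, SE 0.26, edgeR adjusted p = 0.322). HD_v1_tr_01887, with a mean of 7019 CPM, had 6956 ± 1834 CPM at 0-9 h (SD, n = 8) and 5976 ± 1551 CPM at 90-99 h (SD, n = 4) in embryos 1-25, with overlapping ranges. It passed from 20-29 h to 40-46 h (log2 change 0.92, SE 0.33, edgeR adjusted p = 0.0351), but not without the embryos against their label (0.94, SE 0.37, edgeR adjusted p = 0.0521). HD_v1_tr_01691 was the only 1 of the 143 to fall in the first step and rise in the second with all embryos. It went from 706 ± 119 CPM at 0-9 h (SD, n = 9) to 365 ± 199 CPM at 20-29 h (SD, n = 7) and 570 ± 176 CPM at 40-46 h (SD, n = 7). The log2 changes were -0.64 (SE 0.21, edgeR adjusted p = 0.027) and 0.68 (SE 0.22, edgeR adjusted p = 0.0193), and from 0-9 h to 40-46 h the change was 0.04.

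**Figure D4:**
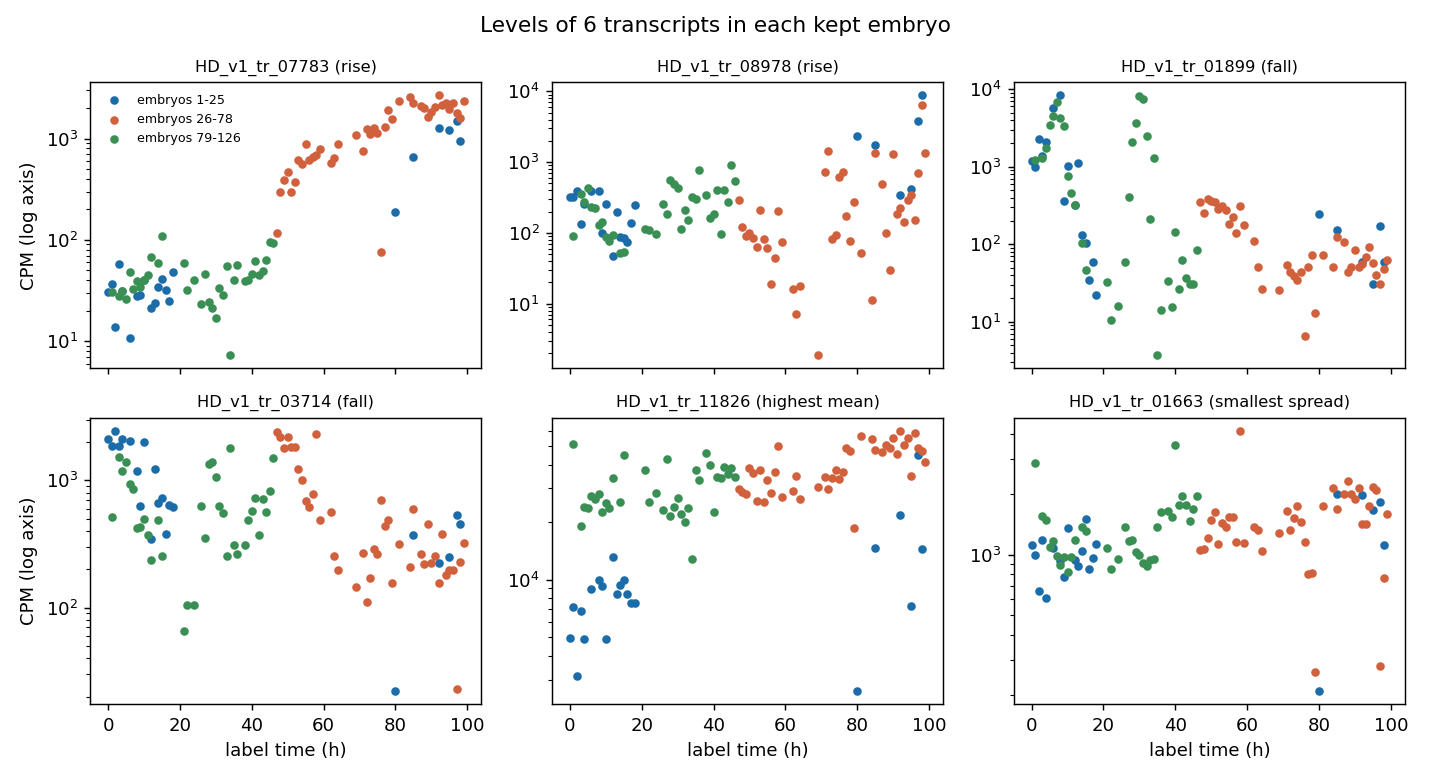
CPM (log axes) of 6 transcripts in each kept embryo with a label hour against that time, coloured by run of embryo numbers: the 2 largest rises and 2 largest falls within embryos 1-25, the transcript with the highest mean and the one with the smallest spread. HD_v1_tr_01899 is high in most embryos of 0-9 h and again in the 7 embryos of 28 to 34 h, which had 211 to 8086 CPM, and HD_v1_tr_11826 is lower in embryos 1-25 than in embryos 79-126 at 0-9 h.

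Some of the 143 transcripts differed widely between runs at the same label age, and some varied closely with the spike-ins. At 0-9 h the ratio of mean CPM in embryos 1-25 over embryos 79-126 had a median of 1.25, and 113 of the 143 ratios lay between 0.5 and 2. The other ratios included 7 over 10. Of these, 5, named after their values were seen, belonged to HD_v1_tr_07805, HD_v1_tr_07806, HD_v1_tr_09180, HD_v1_tr_10858 and HD_v1_tr_12425, with ratios of 112, 80.6, 124, 78.1 and 116. HD_v1_tr_09180, for example, had 5596 ± 2640 CPM in embryos 1-25 (SD, n = 8; 2460 to 9516) and 45.2 ± 18.2 CPM in embryos 79-126 (SD, n = 9; 19.9 to 76.4). Their levels moved together from embryo to embryo, with Spearman correlations of 0.95 to 1.0 over their 10 pairs in embryos 1-25 and of 0.88 to 0.99 in embryos 26-78. Of the 5, 3 form a set of near-equal counts, and HD_v1_tr_07805 and HD_v1_tr_07806 carry consecutive ID numbers.

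The other 2 were HD_v1_tr_11104 and HD_v1_tr_10563, at 31.3 and 29.0 times the level of embryos 79-126. Across all 78 libraries of embryos 1-78, deep or shallow, their log2 ratio to the spike-in counts had an SD of 0.50 and 0.45, and their log2 ratio to the other transcripts an SD of 2.97 and 2.89. For the 143 transcripts the medians of these SDs were 3.22 and 1.18. HD_v1_tr_06538, which the rule leaves out, had 0.26 and 3.00. Over the same libraries only 1 more of the 143, HD_v1_tr_12058, varied less against the spike-ins (1.43) than against the other transcripts (2.43). Over the kept libraries of embryos 1-78 alone, HD_v1_tr_11104 had SDs of 0.49 and 1.43 and HD_v1_tr_10563 of 0.37 and 1.23, while HD_v1_tr_12058 was nearly even at 1.11 and 1.19. There HD_v1_tr_07109 (3.03 and 3.07), HD_v1_tr_07783 (2.45 and 2.54) and HD_v1_tr_08978 (2.23 and 2.27) were also slightly less variable against the spike-ins. The cause was not tested. The IDs were singled out after their values were seen.

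Among the 8 transcripts that stood apart by run or by spike-ins, 2 rose in the comparison of 0-9 h with 90-99 h (23.6% of all tested), 6 from 0-9 h to 20-29 h (15.1%), 1 from 20-29 h to 40-46 h (12.1%), 2 from 50-59 h to 70-79 h (11.3%) and 0 from 70-79 h to 90-99 h (7.12%). None of the 8 fell in these 5 comparisons. The 7 of high ratio were picked by their 0-9 h levels, which are also the earlier window of 2 of the comparisons. A low 0-9 h level in the run of the 20-29 h embryos was part of that choice. The rises from 0-9 h to 20-29 h cannot be read apart from it. Of the 6 that rose there, 5 are the IDs described above as moving together, and they are counted separately. Without the 7 of high ratio, the share of counts at 0-9 h in embryos 1-25 was 9.87% in place of 12.7%, and at 90-99 h it was 20.4% in place of 26.2%. The larger share of the older embryos remained without them.

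**Figure D5:**
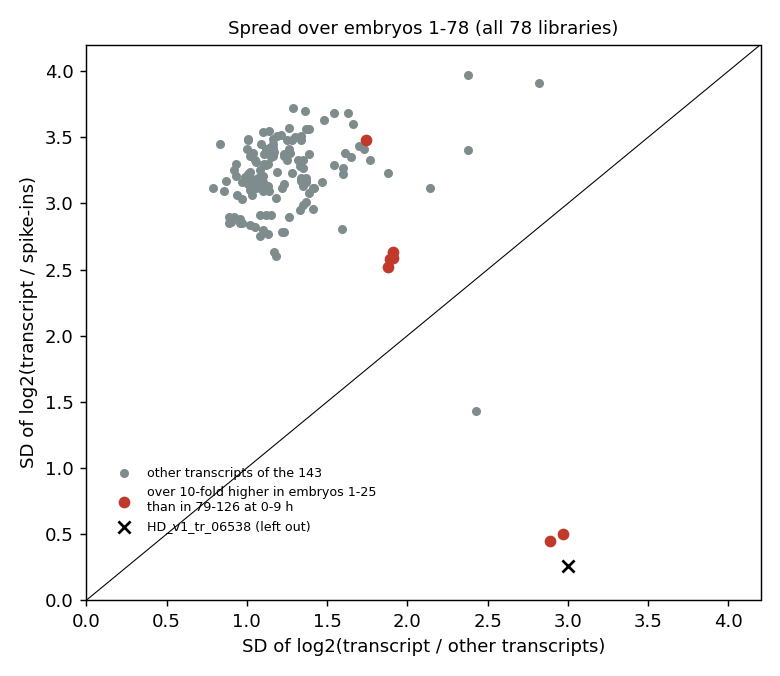
Each of the 143 transcripts by the SD, over all 78 libraries of embryos 1-78, of its log2 ratio to the other transcripts (horizontal axis) and to the spike-in counts (vertical axis), with the line of equal SDs. Red points mark the 7 transcripts over 10-fold higher in embryos 1-25 than in embryos 79-126 at 0-9 h; 2 of them and HD_v1_tr_12058 lie below the line beside HD_v1_tr_06538 (cross), which the rule leaves out.

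The 25 embryos left out for low depth were not used by the rule. In them a median of 70.6% of the 143 transcripts had a count, with a range over embryos of 16.1% to 100%, against medians of 9.6% of all transcripts and 34.8% of the 1519 others above 105 CPM. By run the medians of the 143 were 76.2% in embryos 1-25, 32.9% in embryos 26-78 and 85.3% in embryos 79-126. Those of the 1519 others were 43.9%, 8.82% and 60.9%. Of the 143, 6 were counted in all 25, and of the transcripts outside the 143 and HD_v1_tr_06538, 0 were. The 6 were HD_v1_tr_11826, HD_v1_tr_00049, HD_v1_tr_00264, HD_v1_tr_04135, HD_v1_tr_01480 and HD_v1_tr_05506, of which 5 belong to 2 sets of near-equal counts. At the depth of these embryos a missing count does not show that the RNA was absent. Mean CPM over the kept embryos had a median of 658 for the 143 and 21.9 for all other transcripts. The others above 105 CPM are not matched to the 143 in level. The larger share counted here cannot be read apart from the higher level.

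Levels of the 143 transcripts moved together only weakly within a run. The median Spearman correlation over pairs of transcripts was 0.21 in embryos 1-25 (22 embryos), 0.34 in embryos 79-126 (37 embryos) and 0.24 in embryos 26-78 (42 embryos), beside 0.08, 0.05 and 0.09 for pairs of others above 105 CPM. Both transcripts of a pair are read in the same libraries, and so at the same depths and ages. Of 3 pairs of consecutive ID numbers, HD_v1_tr_03974 with HD_v1_tr_03975 and HD_v1_tr_07805 with HD_v1_tr_07806 had correlations of 0.96 and 0.98 over all kept embryos, and HD_v1_tr_11811 with HD_v1_tr_11812 had 0.07. Of the 143, 16 passed in none of the 5 comparisons within runs, and 15 of these were called along the whole course.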

How the data were processed

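The authors deposited whole-number counts of reads for every transcript model and embryo, without normalization as far as the values show. The submitters' processing notes name CASAVA 1.8, HTSeq 0.5.4p3 and Bowtie2 2.1.0. Which build and annotation they used is not given in the sources used here. Library sizes and tests leave aside 92 ERCC spike-ins and 5 summary rows, among which a median of 6.64% of reads fell in no model and 47.8% did not align.

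CPM is counts per 1000000 transcript counts. Tests used edgeR 4.0.16 in R 4.3.3: TMM factors, the default low-count filter, trended dispersions, the quasi-likelihood F-test and Benjamini-Hochberg adjustment over all transcripts tested, called under 0.05. The SE is the size of the log2 change over the square root of the quasi F. One fit per run gave the contrasts, and a natural spline with 5 degrees of freedom the whole course. Spread is the SD of log2 CPM with a prior count of 2. On simulated counts for the contrast of 0-9 h with 20-29 h (7474 transcripts), 86% of 4-fold and 100% of 16-fold changes were recovered at the trended dispersion. For the course (11798 transcripts) the shares were 31% and 100%. Unchanged transcripts made up 7.46% of the calls for the contrast and 11.5% for the course, above the share of 0.05 aimed at. At a dispersion of 0.1 they made up 3.38% for the contrast.

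IDs were named by a rule: the 2 largest rises and 2 largest falls within embryos 1-25 with the same sign in the other runs (74 rises but only 1 fall met the sign condition, so falls were taken without it), the 3 highest means, the 3 smallest spreads and the 3 transcripts most like the highest. The 143 transcripts, the rule and the lists were chosen with earlier results of these data known. Alternatives were RLE factors, library or spike-in totals, DESeq2 1.42.0, no low-count filter, a minimum depth of 20% of the median total and a test against a 1.5-fold change. Others were different splines, a term for the run in the spline, 47-56 h in place of 50-59 h, and each last-window embryo of embryos 1-25 left out. Added after seeing the data were fits without the embryos in which a single transcript held over 10% of counts or without those nearest to a distant window, and values without single transcripts or for other lists. Python 3.11.15, numpy 2.4.6, pandas 2.3.3 and matplotlib 3.10.9 did the rest.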

Additional observations from a re-analysis of the deposited data

Results flagged for a closer look

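Among 48 groups of 4 to 10 embryos checked, 5 held a single value far from the others by Dixon's criterion, where chance flags about 1 in 20. HD_v1_tr_08978 stood at 1425 CPM in embryo 51 (72 h), with 77.7 to 738 CPM in the other embryos of 70-79 h (n = 9 in all), and at 6525 CPM in embryo 77 (98 h), with 143 to 1338 CPM in the other embryos of 90-99 h (n = 10). HD_v1_tr_03714 stood at 1491 CPM in embryo 126 (46 h), with 375 to 821 CPM in the other embryos of 40-46 h (n = 7); the embryos of 47 to 49 h in the next run had 1784 to 2403 CPM. The 143 transcripts took 16.2% of counts in embryo 81 (1 h), the shallowest kept embryo, with 11.2% to 13.7% in the others of 0-9 h in that run (n = 9). They had 0.166 counts per spike-in count in embryo 76 (97 h), with 1.07 to 1.9 in the others of 90-99 h (n = 10). Embryo 76 had 27.4% of its counts on 1 transcript. Causes were not tested.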

How the results depend on the processing

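Of 158 alternative values, 135 stayed within the spread between embryos or within 1.5 times the count, and 23 moved. Some of the 158 left out no embryo of the group they were read in and could not move, so the tally is no measure of stability. From 50-59 h to 70-79 h the balance of calls turned from 9 higher and 2 lower to 10 and 11 with DESeq2. All 52 values of the 4 transcripts named for rising or falling kept their call and direction. They were read only from 0-9 h to 90-99 h within embryos 1-25, the comparison in which the 4 were picked. That run holds no embryo nearest to a distant window, so values without such embryos could not differ. Within embryos 79-126, all 4 gained or lost a call in the early steps without such embryos. With spike-in totals, calls were 17 from 0-9 h to 90-99 h, 14 from 0-9 h to 20-29 h and 7 from 50-59 h to 70-79 h. From 0-9 h to 20-29 h, the 1.5-fold test gave 16, library totals 15, and leaving out the embryos nearest to a distant window 93. DESeq2 gave 21 from 50-59 h to 70-79 h and 14 from 70-79 h to 90-99 h, where library totals also gave 14. Leaving out each 90-99 h embryo of embryos 1-25 gave 76 to 107. The number of transcripts was 54 with at least 5 counts, 246 at a depth of 20% of the median, 619, 4280 and 232 for embryos 1-25, 79-126 and 26-78 alone, 245 without embryos 17, 58 and 81, and 341 without the 5 in which a single transcript held over 10%. Without HD_v1_tr_11826 the share was 10.3% (0-9 h, embryos 79-126), 18.9% (50-59 h) and 22.5% (90-99 h, embryos 26-78), and 29.0% in the last with HD_v1_tr_06538 outside the total. Without the 7 transcripts of high ratio it was 9.87% and 20.4% (0-9 and 90-99 h, embryos 1-25) and 25.2% (90-99 h, embryos 26-78). Without the embryos nearest to a distant window it was 24.9% (30-39 h, embryos 79-126). The cause of these shifts was not tested. No paired analysis was possible because replicate numbers were given in order and mark no shared mother or clutch. Depth limits which transcripts can be counted in every embryo: after thinning each kept embryo to 65417 counts, 101 were.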
